A study of Mus musculus with 4 samples.

Results

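The Notch pathway was examined through 10 genes of mouse S-180 sarcoma cells. They are the receptors Notch1, Notch2 and Notch3, the ligands Jag1, Jag2 and Dll1, the DNA-binding protein of the pathway, Rbpj, and the target genes Hes1, Hey1 and Heyl. They were chosen by symbol, with a probe counted as theirs when its RefSeq accession maps to that symbol. All 10 had a probe, 11 probes in all since Rbpj has 2, out of 23771 symbols with a probe on the array. The fluoxetine group was S-180 cells kept for 12 h with 20 µM fluoxetine, an antidepressant that blocks serotonin reuptake (2 arrays), and the control group was S-180 cells kept without the drug (2 arrays). S-180 is a transplantable mouse sarcoma line; all cells grew in RPMI medium with 10% fetal bovine serum, and no allele or other agent is named for either group. It is a single line, and the labels call the samples biological replicates without saying whether they came from separate cultures, so a p-value here reflects only how far these samples vary, which may be technical.

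Notch receptors are single-pass membrane proteins that are cut when a ligand of the Jagged or Delta-like family on a neighbouring cell binds them. An ADAM protease and then the gamma-secretase complex release the intracellular part, which enters the nucleus, joins RBPJ and Mastermind-like coactivators on DNA, and switches on genes such as those of the Hes and Hey families of repressors. In mesenchymal cells and tumours the pathway is known for its part in cell fate choice and growth.

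The finding turns on 1 of the 3 receptors, so the promoter windows of all 3 are shown, each 250 bases before to 50 bases after the annotated start of the gene (RefSeq, build GRCm38.p6). Capitals mark GC boxes, the letters GGGCGG on either strand.
Notch1, chr2:26503773-26504072, minus strand: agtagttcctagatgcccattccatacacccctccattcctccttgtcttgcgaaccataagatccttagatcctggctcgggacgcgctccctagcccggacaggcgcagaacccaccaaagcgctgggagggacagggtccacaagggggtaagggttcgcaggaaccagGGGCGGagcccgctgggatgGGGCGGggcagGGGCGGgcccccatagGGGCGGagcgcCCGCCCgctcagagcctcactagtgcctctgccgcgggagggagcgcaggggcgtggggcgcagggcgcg
Notch2, chr3:98013288-98013587, plus strand: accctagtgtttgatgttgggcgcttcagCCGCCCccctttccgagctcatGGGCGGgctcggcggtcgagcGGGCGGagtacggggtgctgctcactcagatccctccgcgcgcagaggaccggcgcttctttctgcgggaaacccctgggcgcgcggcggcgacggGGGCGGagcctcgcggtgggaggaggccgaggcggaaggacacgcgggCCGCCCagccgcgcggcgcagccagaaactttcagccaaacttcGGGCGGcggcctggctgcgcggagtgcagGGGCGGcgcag
Notch3, chr17:32166841-32167140, minus strand: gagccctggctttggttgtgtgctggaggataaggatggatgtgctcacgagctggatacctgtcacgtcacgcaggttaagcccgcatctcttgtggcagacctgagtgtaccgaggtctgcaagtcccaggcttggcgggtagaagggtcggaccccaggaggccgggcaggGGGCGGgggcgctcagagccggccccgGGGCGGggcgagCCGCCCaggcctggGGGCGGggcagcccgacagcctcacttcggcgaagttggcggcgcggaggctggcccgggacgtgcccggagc
The Notch1 window held 5 GC boxes, the Notch2 window 7 and the Notch3 window 4, while 35.66% of 32851 windows of this length hold at least 1. The GC content was 68.3% for Notch1, 73.0% for Notch2 and 70.0% for Notch3, against a median of 52.7% over all windows. These counts describe letters and say nothing of which factor binds there.

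Notch1 was lower with fluoxetine, and the other receptors, ligands and Rbpj did not pass the test. Of the target genes, Hey1 and Heyl were not well above background on any array, and Hes1 on 1 fluoxetine array alone. Of the 6 members bright enough to be tested, 1 fell (Notch1) and 0 rose, where 11.8% of all 13539 tested genes fell and 16.3% rose, 28.1% in either direction together. Scaling to the median signal of each array, under which the median log2 change of all genes was 0.27 instead of 0.025, passed 4 of the 6 members: Notch1 as before, and Notch2, Notch3 and Rbpj as higher. With that scaling 5296 genes rose and 805 fell, against 2206 and 1596 as scaled here. Relative to the shifted median the changes were 0.047 for Notch2, 0.21 for Notch3 and 0.31 for Rbpj. A gene is said here to have risen or fallen when its adjusted p in limma, fitted across all tested genes, was under 0.05. A gene was tested when its probe was well above background, by the scanner software's own mark, on both arrays of at least 1 group. A lower level in these bulk samples cannot tell fewer cells that carry a transcript from less of it in each cell.

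The Notch1 probe gave a processed signal of 349.9 and 195 on the fluoxetine arrays, against 1632 and 1304 on the control arrays. Both fluoxetine values lay below both control values, and all 4 spots were well above background and none was saturated. Relative to the 75th percentile of its array, the signal was 0.631 and 0.303 with fluoxetine and 2.42 and 2.06 in control. The change was −2.35 ± 0.39 on the log2 scale (SE, n = 2 arrays per group, adjusted p = 0.0275 in limma), which is 5.11-fold lower. Its 95% confidence interval ran from −3.46 to −1.25. Taking single arrays, the control level was between 3.27-fold and 7.99-fold that of the fluoxetine arrays. Only 60 of the 13539 tested genes had a more negative change.

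The fluoxetine arrays did not give the same Notch1 level: they differed 2.09-fold after scaling, and the control arrays 1.17-fold. A gap that wide between the fluoxetine arrays occurred in 1.48% of tested genes (201 genes), and the median gap was 0.10 on the log2 scale. Leaving out an array kept the direction each time. The change was −2.88 without fluoxetine 1, −1.82 without fluoxetine 2, −2.24 without control 1 and −2.47 without control 2, with adjusted p from 0.0609 to 0.0905, so that Notch1 no longer passed in any of these. Leaving out either fluoxetine array passed 0 of all 13539 genes in limma (4217 at an unadjusted p under 0.05 without fluoxetine 1, and 4587 without fluoxetine 2). Without the filter on dim probes the change was again −2.35 with an adjusted p of 0.109. Notch1 has a single probe on the array, so no other probe bears on it, and an exact permutation test of 2 arrays against 2 cannot go below p = 0.333.

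**Figure D1:**
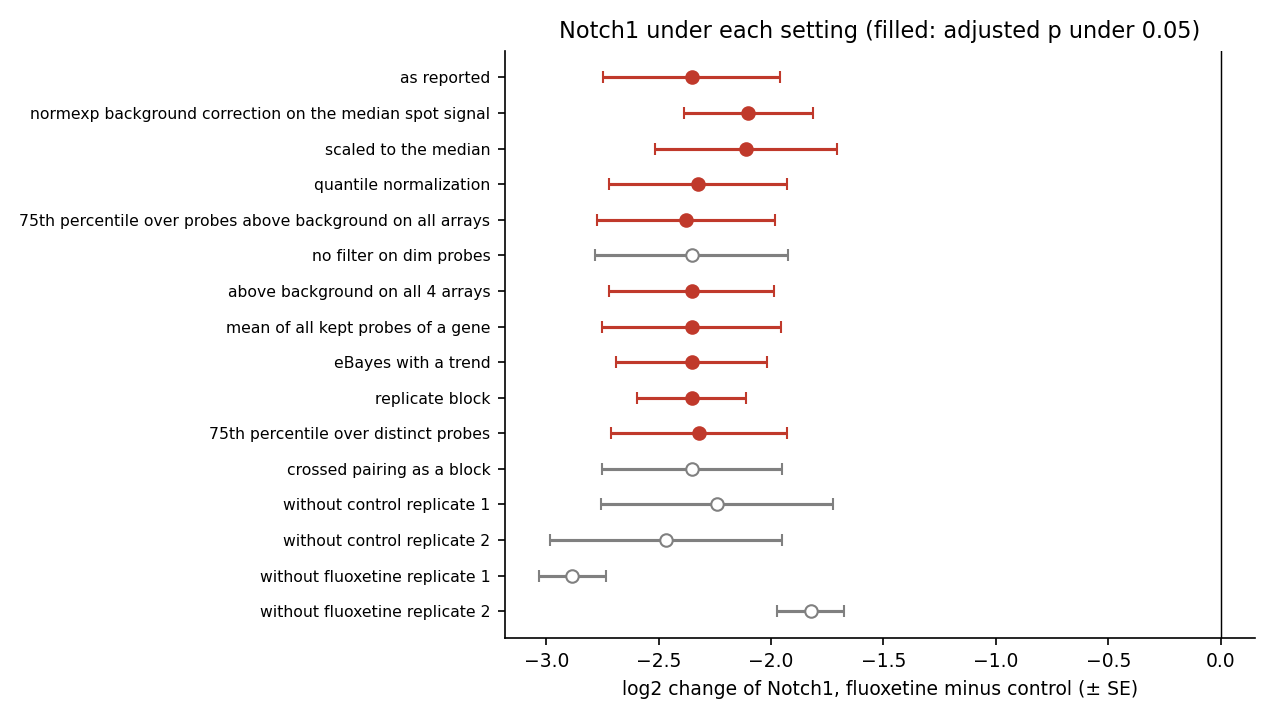
Log2 change of Notch1, fluoxetine minus control, under each way of processing the arrays (points, with bars for the standard error; filled red where the adjusted p was under 0.05). All points lie between −2.88 and −1.82; the open points are the 4 fits without an array, the fit without a filter and the fit with crossed pairs.

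Notch2, which shares the core signalling machinery with Notch1, had signals of 2587 and 2847 with fluoxetine and 2881 and 2767 in control. After scaling, the arrays lay 0.08 apart on the log2 scale in the fluoxetine group and 0.04 apart in the control group, without overlap, and the change was 0.072 ± 0.071 (adjusted p = 0.477; 95% interval −0.13 to 0.27). Notch3, best known from vascular smooth muscle, read 1383 and 1497 with fluoxetine and 1457 and 1228 in control. Its scaled levels did not overlap between the groups, but the unscaled ones did, and the change of 0.23 ± 0.09 did not pass (adjusted p = 0.132; 95% interval −0.02 to 0.49). The groups did not overlap after scaling for 4 of the 6 tested members, against 73.1% of all tested genes.

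The change of Notch1 can also be set against those of the other receptors on the same arrays, where the scale factor of an array cancels. The change of Notch1 was lower than that of Notch2 by a log2 difference of −2.43 and than that of Notch3 by −2.59. Both arrays of the fluoxetine group showed a lower Notch1 relative to either receptor than both control arrays did. The exact permutation p was 0.333 for each of these 2 comparisons, the smallest that this design allows.

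**Figure D2:**
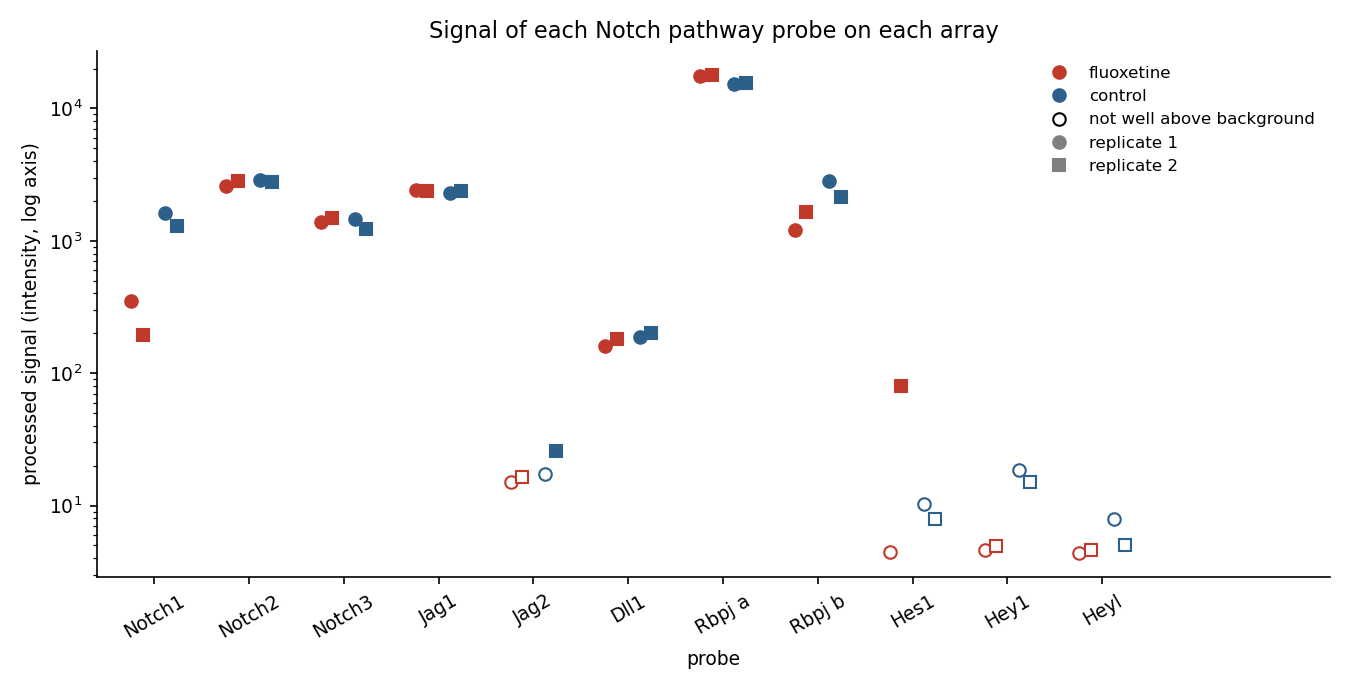
Processed signal (intensity, log axis) of each of the 11 probes on each array, fluoxetine in red and control in blue, circles for replicate 1 and squares for replicate 2, open where the spot was not well above background; Rbpj a and b are its 2 probes. Notch1 at 349.9 and 195 with fluoxetine lies clearly under its control points, and the Hes1 point at 80.5 stands alone.

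Among the ligands, Jag1, a Jagged-family ligand, read 2427 and 2365 with fluoxetine and 2307 and 2376 in control. The groups overlapped, and the change was 0.16 ± 0.12 (adjusted p = 0.360; 95% interval −0.18 to 0.50). Dll1, a Delta-like ligand, gave 159.6 and 181 with fluoxetine and 189 and 200.8 in control. The unscaled values of Dll1 did not overlap, but after scaling they did, with a change of −0.07 ± 0.09 (adjusted p = 0.597; 95% interval −0.33 to 0.19). The sign of that value turned under 4 other settings. Jag2, the other Jagged ligand, was near the limit of detection, with 15.0 and 16.5 with fluoxetine and 17.4 and 25.8 in control. Only control 2 was well above background, so Jag2 was not tested. After scaling the groups overlapped, with 0.0271 and 0.0257 with fluoxetine and 0.0257 and 0.0408 in control, and no direction is given.

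Rbpj, whose protein the cut receptor joins on DNA, had 2 probes that went opposite ways. The brighter probe, of accession NM_001277116, read 17459 and 17971 with fluoxetine and 15339 and 15433 in control. The groups of this probe did not overlap, yet the change of 0.33 ± 0.10 did not pass (adjusted p = 0.0760). The other probe, of accession NM_001359152, read 1217 and 1639 with fluoxetine and 2852 and 2140.5 in control. It was lower on both fluoxetine arrays, with a change of −0.68 ± 0.16 (adjusted p = 0.0523 over the 28270 kept probes, of which 26.5% passed). This probe did pass under 4 of 14 other settings, with normexp, with the filter on all 4 arrays, with a variance trend and with crossed pairs, at changes from −0.84 to −0.44 over all 14. The brighter probe passed under 2 of 15, the median scaling (0.58, adjusted p = 0.0184) and the variance trend (adjusted p = 0.0337). With both probes averaged the change of Rbpj was −0.17 (adjusted p = 0.155), so the array gives no single direction for this gene. The accessions are transcript variants of 1 gene, and which bases each probe reads is not used here.

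Rbpj has 2 annotated starts, and neither of its probes was tied to a start. The window of the first start is shown, beside that of Lfng, a gene of the pathway described below that fell, chosen for its matches. Capitals mark TGGGAA, the core letters of an RBPJ site, on either strand. Of all windows, 25.56% hold TGGGAA.
Rbpj, chr5:53590096-53590395, plus strand: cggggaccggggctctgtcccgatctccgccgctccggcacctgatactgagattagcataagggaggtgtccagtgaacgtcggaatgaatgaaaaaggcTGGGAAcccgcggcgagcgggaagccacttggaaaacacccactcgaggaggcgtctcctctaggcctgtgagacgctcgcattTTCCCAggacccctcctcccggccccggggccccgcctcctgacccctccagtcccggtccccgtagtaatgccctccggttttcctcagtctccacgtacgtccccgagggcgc
Lfng, chr5:140607091-140607390, plus strand: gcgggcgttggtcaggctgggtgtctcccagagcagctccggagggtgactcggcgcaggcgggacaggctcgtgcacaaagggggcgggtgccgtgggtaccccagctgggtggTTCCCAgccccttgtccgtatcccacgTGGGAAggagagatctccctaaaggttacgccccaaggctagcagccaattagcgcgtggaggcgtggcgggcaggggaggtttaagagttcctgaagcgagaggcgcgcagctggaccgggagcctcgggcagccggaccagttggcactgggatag
The first Rbpj window held 2 matches and the second, which overlaps it, 1. The Lfng window held 2, of which 1 was preceded by a G to give GTGGGAA, found in 6.38% of windows. Among the further pathway genes, 16 of 51 with a window held TGGGAA, in 16 of 68 windows. Of the others that fell, Aph1a and Maml3 held 1 each, and Dll3, Nrarp, Kat2b and Ep300 held none. Of those that rose, Cdkn1a held 1, and Mib2, Furin, Rita1 and Gata3 held none. Of the 7 members with a window in the table, Rbpj alone had a match. The windows of Notch1, Notch2, Notch3, Jag1, Jag2 and Dll1 hold none of these letters, which says nothing of sites elsewhere.

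**Figure D3:**
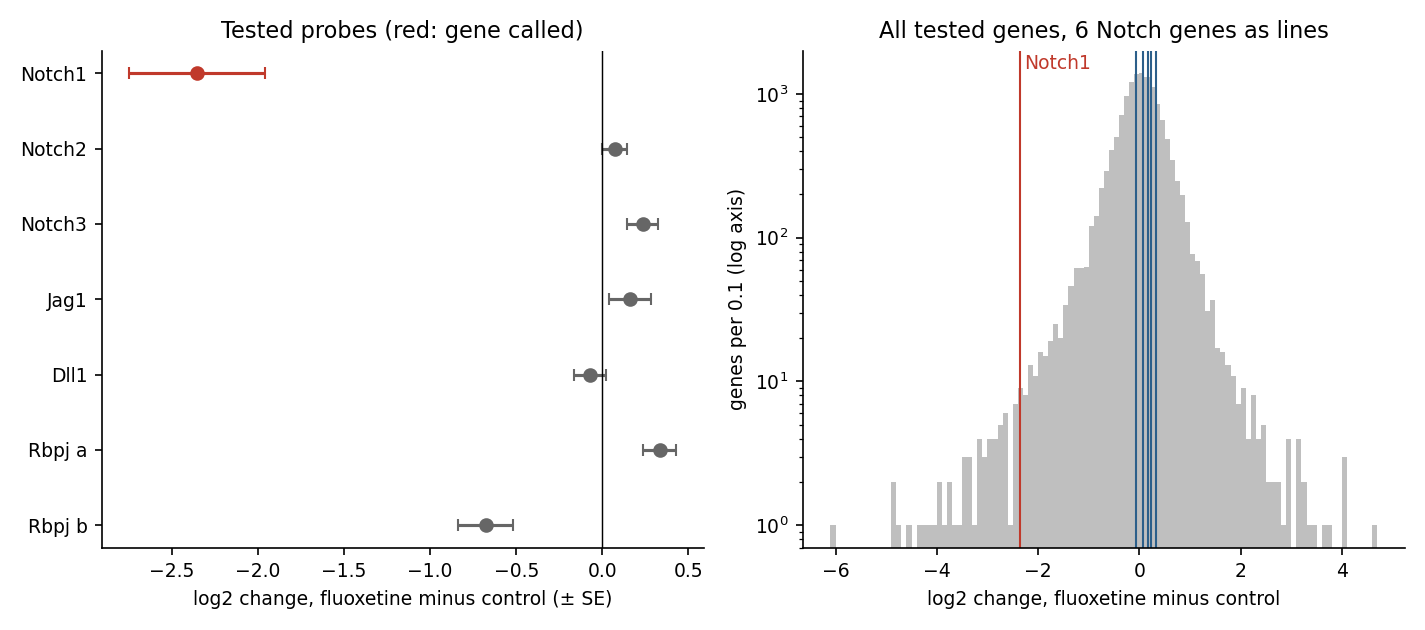
Left, log2 change with its standard error for the 7 tested probes of the 6 tested members (red: the gene was called); right, the changes of all 13539 tested genes as a histogram with a log count axis, the 6 members drawn as lines. Notch1 at −2.35 stands in the far left tail, and the other 5 lie between −0.07 and 0.33.

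The target genes among the members could not be tested. Hes1, a repressor that is the most widely used readout of Notch activity, read 4.50 and 80.5 with fluoxetine and 10.2 and 7.90 in control. Fluoxetine 2 was the only array on which Hes1 was well above background, and the fluoxetine arrays lay on either side of the control arrays. Of the 56605 probes, 984 were well above background on fluoxetine 2 alone, 130 of them at or above the signal of Hes1, and 739 on fluoxetine 1 alone, 138 of them at or above it. Control 1 alone had 827 such probes and control 2 alone 1003, with 143 and 136 at or above that signal. Hey1, a Hes-related repressor, read 4.64 and 4.94 with fluoxetine and 18.6 and 15.1 in control, and Heyl, another of that family, read 4.39 and 4.58 with fluoxetine and 7.98 and 5.01 in control. Both were lower on the fluoxetine arrays, but no spot of either was well above background on any array. The lowest signals marked as well above background were 17.7 and 15.8 on the fluoxetine arrays and 22.3 and 19.95 on the control arrays. So no direction is given for Hey1 or Heyl. A fit that kept all dim probes gave Hey1 an adjusted p of 0.0745, and it passed 0 of 23771 genes in limma, with 5499 at an unadjusted p under 0.05.

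The rest of the pathway was read from 66 further genes in 7 roles. Of these 65 had a probe and 56 were tested, of which 9 rose, 7 fell and 40 did not pass. That is 28.6% called, against 28.1% of all tested genes, and so close to the share over the whole array. Its median change was −0.0024, against 0.025 over all tested genes. Scaling to the median signal of each array turned the split to 23 higher and 3 lower, quantile normalization to 11 and 4, and normexp background correction to 10 and 4. Over all tested genes the median scaling gave 5296 higher and 805 lower, so the array as a whole shifted the same way. Normexp gave 2142 higher and 1450 lower over all tested genes. With quantile normalization the median change of all genes was 0.049. No split over all genes is set beside its 11 and 4, so these are not read as a shift of the pathway. The 16 called genes were spread over all 7 roles. The direction of the 9 rises and 7 falls was thus mixed within the pathway. Each count by role below is to be read beside the 16.3% of all tested genes that rose and the 11.8% that fell.

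**Figure D4:**
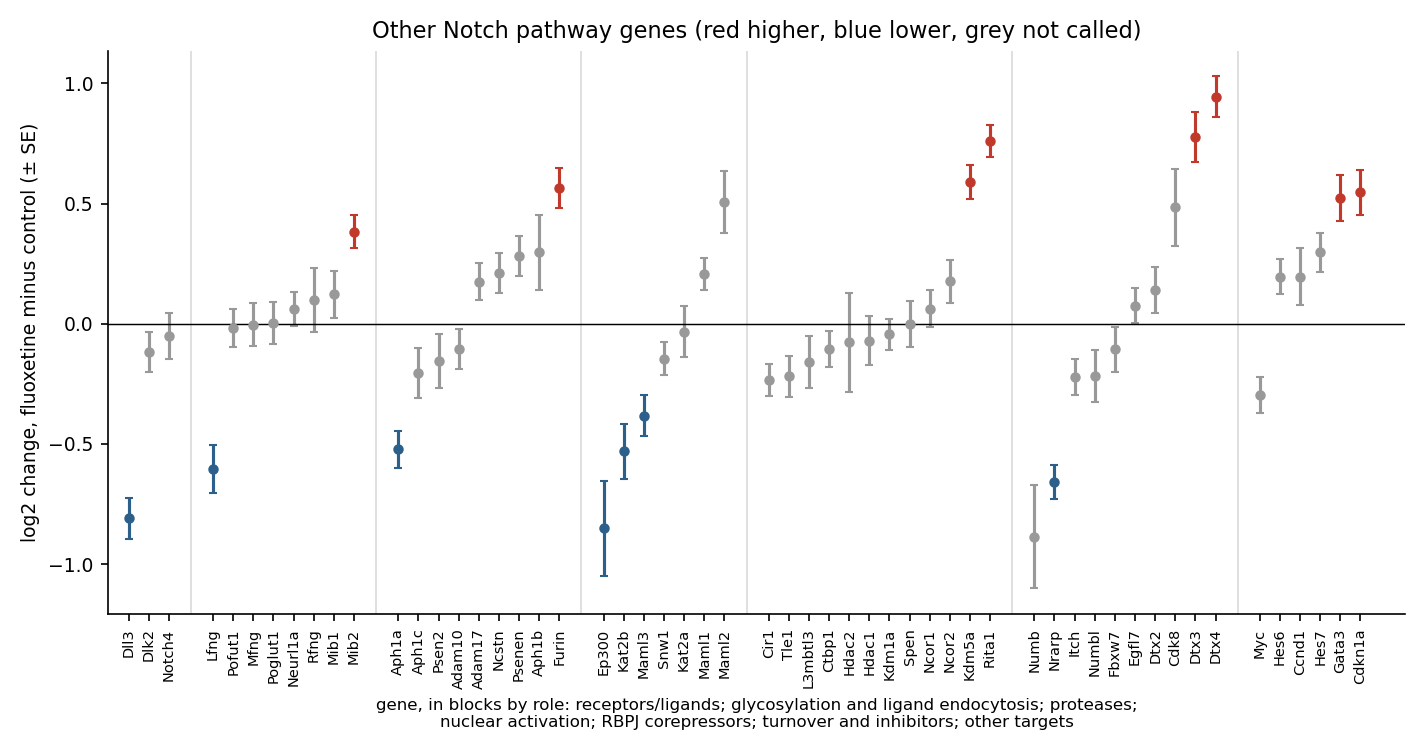
Log2 change, fluoxetine minus control, with its standard error for the tested genes outside the 10 members, 1 of the 56 not shown, in blocks by role and ordered by value within each (red higher, blue lower, grey not called). The largest called rise is Dtx4 at 0.94 and the largest called fall Ep300 at −0.85, and each block but the first holds changes on both sides of 0.

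Among the other receptors and ligands, 1 of 3 tested genes fell. Dll3, a divergent ligand that acts inside the cell and does not activate receptors, read 29.4 and 37.8 with fluoxetine and 67.4 and 60.6 in control. Both fluoxetine values were lower, though all lay near the detection limit, with a change of −0.81 ± 0.09 (adjusted p = 0.0148). With normexp background correction the change was −0.27 and did not pass (adjusted p = 0.0744). Notch4, the receptor known from endothelium, was at −0.05 ± 0.10 and Dlk2, a Delta-like protein, at −0.12 ± 0.08, and neither passed. The ligand genes Dll4, Dlk1 and Dner were not well above background on any array.

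Of 8 tested genes that add sugars to Notch or take up its ligands, 1 rose and 1 fell. Lfng, the Lunatic fringe glycosyltransferase that tunes which ligands a receptor answers to, read 181 and 182 with fluoxetine and 307 and 298 in control. It fell by 0.60 ± 0.10 on the log2 scale (adjusted p = 0.0272), and its other kept probe was also lower, at −0.42. With the median scaling it was at −0.36 and did not pass (adjusted p = 0.0581). Mib2, a ubiquitin ligase for ligand uptake, rose by 0.38 ± 0.07 (adjusted p = 0.0298), while its other probe was at −0.10 and the mean of both, 0.14, did not pass (adjusted p = 0.238). Its relative Mib1 (0.12 ± 0.10) and the fringe gene Rfng (0.10 ± 0.13) did not pass.

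Of the 10 enzymes and subunits that cut the receptor, 2 rose, 1 fell and the remaining 7 did not pass. Furin, the convertase that cuts the receptor precursor, read 3691 and 3954 with fluoxetine and 2829 and 2825 in control, a rise of 0.56 ± 0.08 (adjusted p = 0.0230). Aph1a, a scaffold subunit of gamma-secretase, fell by 0.52 ± 0.08 (adjusted p = 0.0224). All 4 probes of Aph1a were lower with fluoxetine, the weakest at −0.06, and their mean, −0.39, did not pass (adjusted p = 0.0539). Further subunits of that complex, Aph1b (0.30 ± 0.16) and Psenen (0.28 ± 0.08), did not pass.

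In the nuclear activation complex, 3 of 7 tested genes fell and 0 rose, where 11.8% of all tested genes fell and 16.3% rose. None of the 3 passed when arrays were scaled to the median or quantile normalized. Ep300, the p300 acetyltransferase, read 113.5 and 189 with fluoxetine and 306 and 273 in control. It fell by 0.85 ± 0.20 (adjusted p = 0.0491), and its other probe was at −0.83. The acetyltransferase gene Kat2b (−0.53 ± 0.11, adjusted p = 0.0408) and the Mastermind-like coactivator gene Maml3 (−0.38 ± 0.08, adjusted p = 0.0430) also fell. With normexp Kat2b was at −0.079 (adjusted p = 0.579), and with quantile normalization at −0.29 (adjusted p = 0.157). Maml3 was at −0.14 with the median scaling (adjusted p = 0.241). Their relatives Maml2 (0.51 ± 0.13) and Maml1 (0.21 ± 0.07) did not pass. The other probe of Maml2 was at 0.60 (adjusted p = 0.0233 over all kept probes in limma). Maml2 passed as higher under 5 of 15 other settings. Of the 16 called genes these 3 passed under the fewest other settings: Maml3 under 2 of 15, Kat2b under 5 and Ep300 under 6.

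Among proteins that hold RBPJ silent or take it off DNA, 2 of 12 rose and 0 fell. Over all tested genes 16.3% rose, a like share, and 11.8% fell. Rita1, which binds RBPJ and carries it out of the nucleus, read 407 and 476 with fluoxetine and 288 and 281 in control, a rise of 0.76 ± 0.07 (adjusted p = 0.0129). Kdm5a, a histone demethylase found with RBPJ, rose by 0.59 ± 0.07 (adjusted p = 0.0173), but its other kept probe was at −0.80 and the mean over its probes was −0.11. The corepressor genes Cir1 (−0.23 ± 0.07) and Tle1 (−0.22 ± 0.08) did not pass.

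Of 10 tested genes of turnover and inhibition, 2 rose and 1 fell. Dtx4, a Deltex ubiquitin ligase that acts on Notch in the endocytic route, read 2216 and 2525 with fluoxetine and 1319 and 1370 in control. Both fluoxetine values were higher, with a rise of 0.94 ± 0.08 (adjusted p = 0.0129). Dtx3 of the same family rose by 0.78 ± 0.10 (adjusted p = 0.0200). Nrarp, a target gene of Notch whose small ankyrin protein dampens the pathway, read 534 and 583 with fluoxetine and 997 and 930 in control. It fell by 0.66 ± 0.07 (adjusted p = 0.0151). The endocytic adaptor gene Numb, which antagonises Notch, was at −0.89 ± 0.21 and did not pass (adjusted p = 0.0522), nor did the kinase gene Cdk8 (0.49 ± 0.16), whose other probe was at −0.47. The signals of Numb were 28.2 and 36.9 with fluoxetine and 81.4 and 52.2 in control, which do not overlap.

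Among the further genes listed here as Notch targets in some tissues, 2 of 6 tested rose and 0 fell. Nrarp, also a target gene, was counted with the inhibitors above, where it fell. The cell cycle inhibitor gene Cdkn1a rose by 0.55 ± 0.09 (adjusted p = 0.0283) and the transcription factor gene Gata3 by 0.52 ± 0.10 (adjusted p = 0.0327); both answer to many other signals as well. Hes7, a clock gene of the segmenting embryo (0.30 ± 0.08), and Myc (−0.30 ± 0.07) did not pass. Hes2, Hes3, Hes5 and Hey2 were not tested: no probe of Hes3, Hes5 or Hey2 was well above background on any array, and that of Hes2 only on fluoxetine 2. Of the 16 called genes outside the members, 9 did not pass in any fit that left out an array, and 4 (Dll3, Rita1, Dtx4 and Dtx3) passed with replicate number as a block.

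The arrays and the cells were checked as follows. The 75th percentile of the signal was 554 and 643 on the fluoxetine arrays and 675 and 631 on the control arrays, 51.7% to 53.5% of spots were well above background, and 0 were saturated. All arrays lay on 1 slide and in 1 scan, with those of a group side by side, so an effect of position and an effect of the drug cannot be told apart. Of 10 mesenchymal markers, 6 were well above background on both fluoxetine arrays and 7 on both control arrays, Vim, Fn1, Sparc and Col1a1 among them, while Col3a1, Pdgfrb and Thy1 were not. Of 6 epithelial markers 4 were so in each group, with Cdh1 and Cldn4 not. Of 8 endothelial markers 2 were (Pecam1 and Tie1), with Cdh5, Kdr, Tek, Cldn5, Esam and Emcn not; of 7 smooth muscle and pericyte markers 3 were, with Myh11, Rgs5, Des and Cspg4 not; and of 8 leukocyte markers 4 were, with Ptprc, Adgre1 and Lyz2 among those that were not. Sparc, Col1a1, Krt18, Tagln and Itgam fell, and Cd68 and Cd3e rose. Col1a2 also passed as lower, at −2.02. It was well above background on both control arrays but not on both fluoxetine arrays. Col1a2 thus entered the test through the control group alone, and the size of its change is uncertain. The summed level relative to the 75th percentile was 2.84 to 3.54 with fluoxetine and 4.40 to 5.55 in control for smooth muscle markers, and 126 to 127 with fluoxetine and 148 to 155 in control for epithelial ones. It was 64.9 to 66.3 with fluoxetine and 67.3 to 77.3 in control for mesenchymal markers. For endothelial ones it was 0.286 to 0.316 with fluoxetine and 0.262 to 0.294 in control. For leukocyte ones it was 34.4 to 39.3 with fluoxetine and 17.0 to 18.3 in control. Such a sum weighs the brightest marker most. The called leukocyte markers went both ways, Cd68 at 1.36, Cd3e at 0.49 and Itgam at −1.99, so the sum does not describe the list as a whole. The part of these shifts in the fall of Notch1 was not tested.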

How the data were processed

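RNA of 2 fluoxetine and 2 control samples of S-180 cells was measured on 1-colour Agilent arrays. Each deposited value is a linear intensity of a spot, which, per the file headers, the authors made in Feature Extraction 12.1.0.3; the processed signal is corrected for background within an array and not scaled between arrays. The deposited yes-or-no marks for other spot properties, set by that software per the file headers, gave the detection and outlier filters. The sources used here do not give any later normalization by the authors.

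Here, spots marked as controls or as non-uniform were dropped (47 probes lost), spots of 1 probe were averaged, and log2 of the signal minus the 75th percentile of the non-control spots of the array was taken. Symbols came from the RefSeq table of GRCm38.p6, matched without accession versions: 34645 of 56605 probes matched 1 symbol. The array design is on build mm9, so no probe position is given. A probe was kept when both arrays of a group, or of each, marked it well above background (28270 probes), and the brightest kept probe stood for its gene (13539 genes). Fluoxetine minus control was fitted with limma 3.58.1 in R 4.3.3 (lmFit and eBayes, group only, all 4 arrays), with Benjamini-Hochberg adjustment over all genes, and again over all kept probes. Errors after ± are standard errors from limma with n = 2 arrays per group. The script was tested on simulated data. The number of arrays limits the precision.

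All 10 members are described with every probe. Of each further role, up to 4 called genes with the largest change and up to 2 others are named, and all in the role with 3 tested. Ncor1 is named besides for its probes. A called pathway gene and a marker, both in the counts, are not reported here by name. The members, lists and rule were chosen with earlier results of these data known. Alternatives changed the background correction, the scaling, the filter, the probes of a gene, the variance model, a replicate block and each array in turn. The files hold no mean spot signal, so normexp used the median spot signal. Replicate numbers come from the labels, which do not say that a number marks a shared culture.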

Additional observations from a re-analysis of the deposited data

How the results depend on the processing

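As reported, 3802 genes, 7489 probes, 1 of 6 members and 16 of 56 further pathway genes passed. Scaling to the median gave 6101 genes, 4 members and 26 pathway genes. Without a filter on dim probes, limma passed 0 genes, 0 probes, 0 members and 0 pathway genes (5499, 11979, 2 and 20 at an unadjusted p under 0.05). A variance trend gave 2 members, Notch1 and Rbpj, with no count over all genes set beside it here. The replicate block gave 1064 genes, 0 probes (10059 at an unadjusted p under 0.05), 1 member and 4 pathway genes, with Notch1 at an adjusted p of 0.0410. Deviations of samples with the same number correlated at r = −0.138. With 2 arrays per group the crossed pairs give 0.138 by construction. This single value therefore cannot tell whether the numbers pair the samples. The crossed pairs, chosen after seeing the data, gave 2404 genes, 3467 probes and 0 members (11 pathway genes). Leaving out an array gave 0 to 2235 genes, 0 to 3863 probes, 0 members and 0 to 9 pathway genes, on the assumption that the lone array varies like the other group. Genes passed in 576 cases without control 1, 2235 without control 2 and 0 without either fluoxetine array. Notch1 was lower under all 15 alternatives and passed under 9, with adjusted p from 0.00345 to 0.109.

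Signs turned for genes that were not called, and for the called gene Kdm5a (−0.11 with its probes averaged). Averaging probes also gave Rbpj −0.17, Mib1 −0.10 and Myc 0.033. The median scaling gave Dll1 0.17, Dlk2 0.12, Notch4 0.19, Cir1 0.0088 and Tle1 0.024. Normexp gave Dll1 0.0017 and Rfng −0.068, and quantile normalization gave Dll1 0.026. Over the fits without an array, Dll1 ran from −0.16 to 0.023, Notch4 from −0.14 to 0.039 and Rfng from −0.045 to 0.24. The median scaling moves all genes by the same amount. Averaging takes in the other kept probes, which had the opposite sign for Kdm5a, Rbpj, Mib1 and Myc. What turned the other signs was not tested. Of the comparisons for single genes, 398 kept direction and side of the threshold, 111 no longer passed, 30 newly passed and 15 turned sign. Probes near background limit what can be said of Jag2, Hes1, Hey1 and Heyl.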

Other observations

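Different probes of a pathway gene did not always give the same call. Of the 3 probes of Psenen, a subunit of gamma-secretase, the brightest did not pass, while another was at 0.56 on the log2 scale (adjusted p = 0.0248 over all kept probes in limma). Its signals were 25576 and 29753 with fluoxetine and 20388 and 20571 in control. The growth gene Myc was at −0.30 by its brightest probe and at 0.36 by the other (adjusted p = 0.0486 over all kept probes in limma). The second probe of Myc read 774 and 955 with fluoxetine and 767 and 698 in control. The corepressor gene Ncor1 did not pass by its brightest probe, at 0.06. Other kept probes of Ncor1 passed in opposite directions over all kept probes in limma. One was at 0.80 (adjusted p = 0.0297) and another at −0.74 (adjusted p = 0.0207). These probes were chosen after their values were seen.

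Hes2, a gene of the Hes family, read 4.33 and 60.7 with fluoxetine and 18.3 and 8.72 in control. Like Hes1, it was well above background on fluoxetine 2 alone. So were 984 of all probes, and the likeness was seen after the values were known, so no shared pattern is read from it.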
